A study of Homo sapiens with 32 samples.

Results

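Knockout (KO) clones of EZH2 and of SUZ12 in A673 cells were compared with each other, 3 libraries against 3, and not through the controls. The 6 libraries were chosen by the genotype in their labels, out of 32 samples in the series. A673 is an established Ewing sarcoma line that carries the fusion oncoprotein EWS::FLI1. EZH2ko clones 1, 2 and 3 and SUZ12ko clones 1, 2 and 3 were all derived by genome editing from a single A673 clone, called WT, that carries a doxycycline-inducible Cas9 at the AAVS1 locus (iCas9). Each library is therefore 1 clone, and what is particular to a clone cannot be told apart from what the editing of the gene did in that clone. The control of the same experiment had 3 libraries, 2 of the WT clone (genotype iCas9) and 1 of the parental line (genotype WT). STAG2 was intact in all 9 of these libraries. The fit also held 3 STAG2ko libraries of the same experiment, which entered the filter on low counts, the scaling and the estimate of the spread but were not compared. RNA was primed with oligo(dT), amplified and sequenced as non-directional libraries, and the authors counted reads on 28278 gene symbols. Totals were 16848611 to 20663679 counts in the 6 KO libraries.

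Polycomb repressive complex 2 (PRC2) methylates lysine 27 of histone H3 at the promoters of silent developmental genes. EZH2 is its catalytic subunit and has a paralog, EZH1, that can occupy the same place in the complex. SUZ12 and EED form the core on which either paralog is assembled, so the removal of SUZ12 takes away the scaffold of complexes with EZH2 and with EZH1 alike. The comparison asked which genes differ between cells without the catalytic subunit EZH2 and cells without the core subunit SUZ12.

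The targeted genes were examined first. EZH2 (chromosome 7, 148807257 to 148884321, minus strand, GRCh38) had 45.6, 56.1 and 28.2 CPM (counts of the gene per 1000000 counts of the library) in EZH2ko clones 1, 2 and 3, and 216, 203 and 229 CPM in the SUZ12ko clones. The controls had 162, 166 and 184 CPM. The EZH2 levels of the genotypes did not overlap, and EZH2 was lower in EZH2ko by 2.32 on the log2 scale (log2 difference -2.32, SE 0.20, adjusted p = 0.00186, quasi-likelihood test of edgeR with Benjamini-Hochberg adjustment). EZH2 transcripts were not lost in any EZH2ko clone, and the level of an edited transcript does not measure the protein. SUZ12 (chromosome 17, 31937007 to 32001038, plus strand) had 48.6, 46.2 and 62.3 CPM in the EZH2ko clones, 15.7, 11.2 and 20.5 CPM in the SUZ12ko clones and 56.6, 63.1 and 57.6 CPM in the controls. The SUZ12 levels did not overlap either, with a log2 difference of 1.73 (95% interval 1.24 to 2.22), but the adjusted p was 0.0663 in edgeR's test. Against the controls, SUZ12 fell by 1.90 on the log2 scale in SUZ12ko cells (adjusted p = 0.000299, edgeR). Of the distinct 86-base stretches of SUZ12 coding transcripts, the length of a read, 4.99% were also found in transcripts of another gene, nearly all in the pseudogene SUZ12P1, so a part of the SUZ12 count is uncertain. For EZH2 this share was 0%.

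The other subunits did not separate the genotypes. EZH1 had 20.7, 21.7 and 17.7 CPM in EZH2ko and 23.5, 20.1 and 13.7 CPM in SUZ12ko clones (log2 difference 0.07, 95% interval -0.50 to 0.64). EED had 35.7, 24.6 and 36.4 CPM against 32.8, 26.1 and 39.4 CPM (log2 difference -0.02, 95% interval -0.48 to 0.44). Of RBBP4 and RBBP7, the histone-binding subunits, RBBP4 had a log2 difference of -0.02 and RBBP7 of 0.37, both with an adjusted p of 0.999 in edgeR's test. RBBP7 stood apart in a single library, EZH2ko clone 2, with 321 CPM where the other KO libraries had 151 to 190 CPM.

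Of the accessory subunits, 8 of 9 passed the filter on low counts, and none had an unadjusted p under 0.05. JARID2, which helps PRC2 to bind chromatin, had 85.2, 136 and 76.6 CPM in EZH2ko and 90.2, 107 and 80.3 CPM in SUZ12ko clones, above the 43.1 to 54.8 CPM of the controls in both. JARID2 rose against control by 0.97 on the log2 scale in EZH2ko (adjusted p = 0.00794) and by 0.87 in SUZ12ko (adjusted p = 0.0107), with a difference between the genotypes of 0.10 (95% interval -0.34 to 0.54). EPOP, which modulates the activity of PRC2, rose by 1.09 and 1.38 in the same comparisons, and its difference was -0.29 (95% interval -0.81 to 0.24). PHF1, MTF2 and PHF19, the Polycomb-like proteins, had differences of -0.16, 0.04 and -0.19. LCOR, LCORL and AEBP2 had differences of 0.05, -0.16 and -0.15, and for all 8 accessory genes the 95% interval lay within 2-fold.

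**Figure D1:**
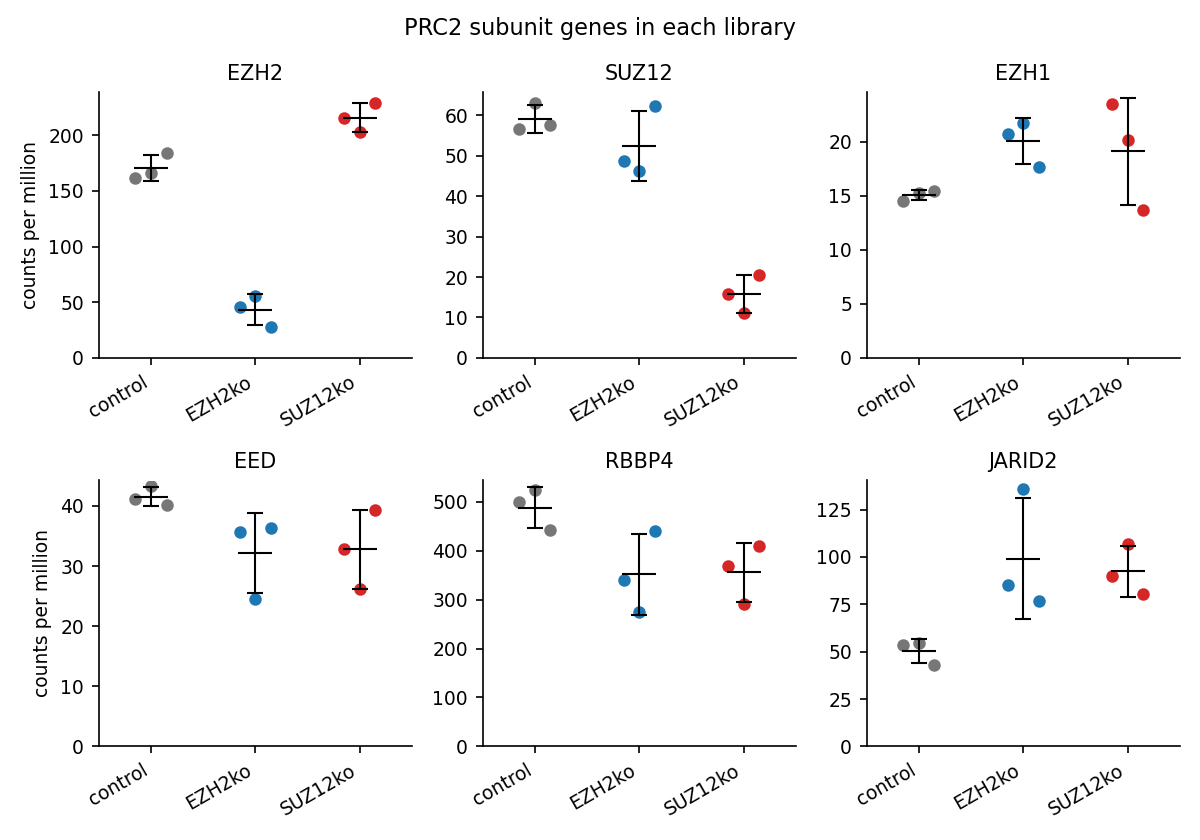
CPM (vertical axis, linear, from 0) of 6 PRC2 genes in each library of control, EZH2ko and SUZ12ko cells. Points are libraries, wide bars the mean and whiskers the SD of 3 libraries. EZH2 is at 28.2 to 56.1 CPM in EZH2ko and 203 to 229 CPM in SUZ12ko, SUZ12 at 46.2 to 62.3 and 11.2 to 20.5 CPM, and the other 4 genes overlap between the knockouts.

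Across the genome, EZH2 itself was the gene called different between the KO genotypes. Of 15130 genes tested, 1 passed an adjusted p of 0.05 (0.00661%), and 0 were higher in EZH2ko (0%). At an unadjusted p under 0.05 stood 629 genes (4.16%), 327 of them lower (2.16%) and 302 higher in EZH2ko (2%). These counts moved with single libraries, and 418 genes stood at that p without EZH2ko clone 2 (260 lower, 158 higher) and 947 without EZH2ko clone 3 (432 lower, 515 higher). Without SUZ12ko clone 2 they were 194 lower and 281 higher, without SUZ12ko clone 3 519 lower and 378 higher, and without SUZ12ko clone 1 233 lower and 193 higher. Libraries of the genotypes did not overlap for 781 genes lower in EZH2ko (5.16%) and 728 higher (4.81%). For 9591 genes (63.4%) the 95% interval of the difference lay within 2-fold, while for 5539 it did not. The median half-width of that interval was 0.56 on the log2 scale. The test of DESeq2 on the same counts called 22 genes, 12 higher and 10 lower in EZH2ko, and 17 of these are among the 24 genes described next.

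The distances of KO libraries within and between genotypes overlapped. The root mean square difference in log2 CPM over the genes tested was 0.57 to 0.81 among EZH2ko clones, 0.58 to 0.78 among SUZ12ko clones and 0.48 to 0.83 between the genotypes, with medians of 0.63, 0.60 and 0.73. The smallest of all these distances, 0.48, joined EZH2ko clone 3 and SUZ12ko clone 3. From the controls, EZH2ko clones lay at 1.14 to 1.41 and SUZ12ko clones at 1.28 to 1.57. Against control, 1819 genes rose (12%) and 558 fell (3.69%) in EZH2ko cells, and 2224 rose (14.7%) and 888 fell (5.87%) in SUZ12ko cells. These comparisons share their 3 control libraries, and the difference between their counts was not tested.

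The genes described one by one were those with libraries that did not overlap, a mean of at least 5 CPM in the higher genotype and the smallest p, 12 in each direction. Apart from EZH2, all of them missed the adjusted threshold in edgeR's test, with adjusted p-values of 0.0663 to 0.949. Of the 12 lower in EZH2ko, 7 belonged to the PRC2-repressed genes defined below, among them NRK, KIRREL3, MNX1, GAL, FLNC and CTCFL. Of the 12 higher in EZH2ko, 0 did, and 7, SUZ12 among them, were at least 2-fold lower in the mean of the KO genotypes than in control. Of all genes tested, 13.5% were in the first of these groups and 2.27% in the second. Both groupings need a change only in the mean of the KO genotypes, so a gene can enter through SUZ12ko alone. Against control in EZH2ko, the adjusted p was 0.234 for NRK and 0.116 for FLNC, and 0.628 for SUZ12 and 0.0723 for GPR174 (edgeR). The libraries were non-directional, and reads of MNX1, KIRREL3, FLNC, ADAMTS4, PKIG, LMBR1, BAHCC1 and TBC1D5 cannot be told apart from those of annotated genes that they overlap on the other strand. The promoters of 4 of these genes, chosen after their values were seen, are shown as examples of windows rich and poor in CpG, the sequence feature with which PRC2 targets are usually associated. Each is the 250 bases before a RefSeq start site on GRCh38.p14, 5′ to 3′, with CG dinucleotides in capitals. MNX1 and KIRREL3 were lower, and GPR174 and ITM2A higher, in EZH2ko than in SUZ12ko cells.
MNX1, chr7:157010664-157010913, minus strand: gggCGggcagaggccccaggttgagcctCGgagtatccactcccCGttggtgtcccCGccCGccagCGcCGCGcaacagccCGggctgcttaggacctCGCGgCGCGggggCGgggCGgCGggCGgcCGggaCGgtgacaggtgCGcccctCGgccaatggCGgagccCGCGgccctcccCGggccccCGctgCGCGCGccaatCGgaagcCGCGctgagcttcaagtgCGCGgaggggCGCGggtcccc
KIRREL3, chr11:127003395-127003644, minus strand: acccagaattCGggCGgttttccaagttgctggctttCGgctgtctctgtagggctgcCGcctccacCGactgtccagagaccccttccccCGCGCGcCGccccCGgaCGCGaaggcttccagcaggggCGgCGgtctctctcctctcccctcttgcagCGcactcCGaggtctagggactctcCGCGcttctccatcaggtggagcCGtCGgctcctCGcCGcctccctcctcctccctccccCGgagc
GPR174, chrX:79144438-79144687, plus strand: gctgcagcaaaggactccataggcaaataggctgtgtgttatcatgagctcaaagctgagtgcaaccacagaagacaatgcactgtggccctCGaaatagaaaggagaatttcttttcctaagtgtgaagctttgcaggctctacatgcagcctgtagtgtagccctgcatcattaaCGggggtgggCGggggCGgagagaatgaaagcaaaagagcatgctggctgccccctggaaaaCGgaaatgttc
ITM2A, chrX:79367335-79367584, minus strand: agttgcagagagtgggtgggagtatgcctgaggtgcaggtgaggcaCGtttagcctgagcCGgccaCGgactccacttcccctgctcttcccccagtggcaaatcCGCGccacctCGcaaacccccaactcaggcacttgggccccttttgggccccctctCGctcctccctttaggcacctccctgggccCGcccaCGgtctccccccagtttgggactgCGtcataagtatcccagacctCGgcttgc
The window of MNX1 held 36 CG dinucleotides and that of KIRREL3 23, with observed-to-expected ratios of 0.93 and 0.82. The window of GPR174 held 5 and that of ITM2A 11, with ratios of 0.32 and 0.45. A ratio of at least 0.6 together with a GC content of at least 50% was met by 44.9% of all 27305 windows of this length in the table and by 75.2% of the 11560 windows of genes tested here. Windows of both kinds occurred in both directions. HOOK1, NFKB1, HBEGF, SMIM3, PKIG and SUZ12, higher in EZH2ko, met both conditions as well, and CTCFL and TBC1D5, lower in EZH2ko, did not. The motif GGAAGGAA or its reverse complement TTCCTTCC, a short form of the GGAA repeats bound by EWS::FLI1, was in none of the 4 windows and in 2.99% of all. A comparison of CpG content between gene sets was void, since a window was at hand for 76.4% of the genes tested, under the 80% required.

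A transcription factor of the nervous system was among the genes lower in EZH2ko. MNX1, the homeobox factor of motor neurons, had 1.77, 0.94 and 1.33 CPM in EZH2ko and 6.40, 5.51 and 8.28 CPM in SUZ12ko clones, with at most 2 counts in a control library. Its log2 difference was -2.31 (SE 0.58, adjusted p = 0.949), and it was called by DESeq2.

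Other PRC2-repressed genes were lower in EZH2ko as well. GAL, which encodes the neuropeptide galanin, had 3.93, 4.55 and 12.2 CPM in EZH2ko and 20.3, 27.5 and 22.9 CPM in SUZ12ko clones (log2 difference -1.77, SE 0.46). KIRREL3, an adhesion molecule of synapses, had 4.74, 3.99 and 5.21 CPM against 20.9, 13.0 and 8.49 CPM (log2 difference -1.60, SE 0.37). In both genes every KO clone was above every control, and GAL was highest among EZH2ko clones in clone 3. CTCFL, the germline paralog of the insulator protein CTCF, had 2.78, 0.72 and 2.27 CPM against 5.44, 17.5 and 5.64 CPM (log2 difference -2.30, SE 0.60). FLNC, the filamin of muscle, had 133, 73.9 and 80.6 CPM against 161, 255 and 139 CPM (log2 difference -0.95, SE 0.25). The adjusted p was 0.904 for KIRREL3 and 0.949 for GAL, CTCFL and FLNC.

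NRK, a kinase gene of the X chromosome, had the largest difference of the 24. It had 0.048, 0.055 and 0.24 CPM in EZH2ko clones and 3.47, 4.52 and 10.3 CPM in SUZ12ko clones. Control libraries held at most 1 count. The SUZ12ko mean was at least 36.5-fold above the limit of 3 counts per control library, and the EZH2ko mean did not reach that limit. NRK rose against control in SUZ12ko (adjusted p = 0.000612), while in EZH2ko the adjusted p was 0.234. The fitted log2 difference between the genotypes was -5.64 (SE 0.79, adjusted p = 0.113), a value that depends on the prior count, and NRK was called by DESeq2, by limma voom (adjusted p = 0.0475) and by edgeR without a filter on low counts (adjusted p = 0.0348). Over all alternatives its log2 difference was between -6.71 and -5.05.

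The remaining named genes lower in EZH2ko did not rise 2-fold in the mean of both KO genotypes. TSPAN2, a tetraspanin, had 3.93, 3.33 and 4.88 CPM in EZH2ko and 9.82, 10.0 and 5.64 CPM in SUZ12ko clones, with 4.33 to 4.53 CPM in control. BAHCC1, which encodes a chromatin protein, had 79.4, 70.1 and 87.7 CPM against 120, 120 and 97.7 CPM, with 76.8 to 94.3 CPM in control. Both rose against control in SUZ12ko (adjusted p = 0.0314 for TSPAN2 and 0.0467 for BAHCC1, edgeR), while in EZH2ko the adjusted p was 0.791 and 0.697. TBC1D5, a regulator of endosomal traffic, had 61.6, 59.8 and 48.6 CPM against 94.5, 78.8 and 72.2 CPM, with 69.3 to 75.8 CPM in control. LMBR1, which lies near MNX1 on chromosome 7, had 48.6, 38.7 and 28.0 CPM against 65.8, 56.9 and 60.7 CPM, with 56.9 to 61.6 CPM in control, and fell against control in EZH2ko (adjusted p = 0.034). The log2 differences between the KO genotypes for TSPAN2, BAHCC1, TBC1D5 and LMBR1 were -1.07, -0.51, -0.53 and -0.67, each with an adjusted p of 0.949.

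**Figure D2:**
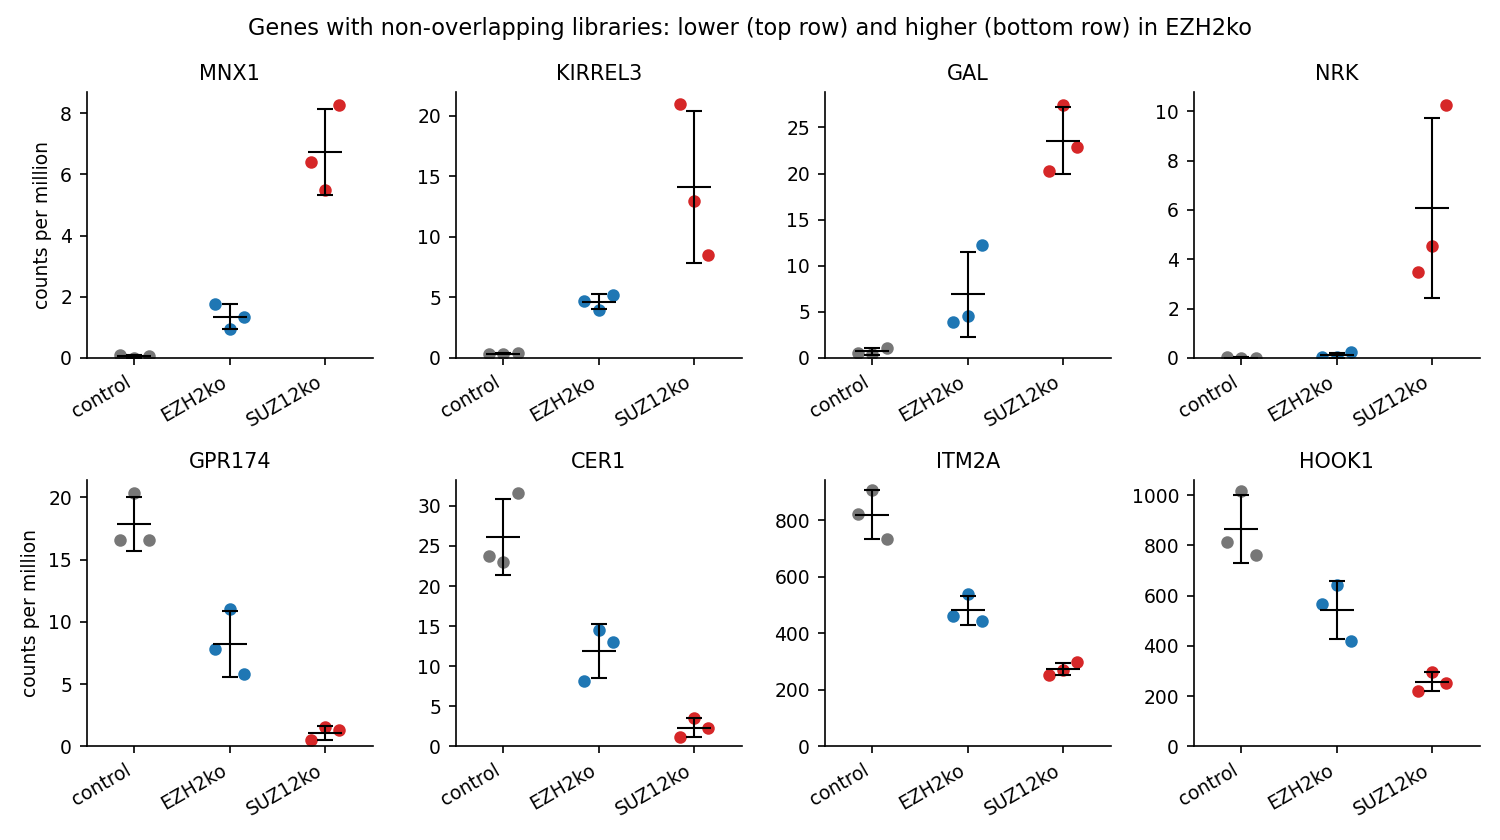
CPM (vertical axes, linear, from 0) of 8 genes in each library of control, EZH2ko and SUZ12ko cells. Points are libraries, wide bars the mean and whiskers the SD of 3 libraries. The top row holds genes at or near 0 in control that are lower in EZH2ko than in SUZ12ko clones, such as MNX1 with 0.94 to 1.77 against 5.51 to 8.28 CPM. The bottom row holds genes highest in control, for which the EZH2ko clones lie between the controls and the SUZ12ko clones, such as ITM2A with 446 to 541 against 254 to 299 CPM.

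Among the genes higher in EZH2ko, several were highest in control cells and lowest in SUZ12ko cells. GPR174, a receptor for lysophosphatidylserine, had 16.6 to 20.4 CPM in control, 7.81, 11.03 and 5.82 CPM in EZH2ko and 0.48, 1.57 and 1.29 CPM in SUZ12ko clones. CER1, a secreted antagonist of BMP and NODAL, had 22.9 to 31.6 CPM in control, 8.15, 14.5 and 13.0 CPM in EZH2ko and 1.20, 3.54 and 2.26 CPM in SUZ12ko clones. For both, the 3 genotypes did not overlap. The log2 difference between KO genotypes was 2.88 for GPR174 (SE 0.40) and 2.34 for CER1 (SE 0.34), with an adjusted p of 0.103 each. Both passed with DESeq2 and with edgeR without a filter (adjusted p = 0.0348 each).

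The same order was seen at high levels. ITM2A, which encodes a transmembrane protein, lies near GPR174 on chromosome X (starts at 79360384 and 79144688). It had 732 to 908 CPM in control, 460, 541 and 446 CPM in EZH2ko and 254, 269 and 299 CPM in SUZ12ko clones (log2 difference 0.81, SE 0.13, adjusted p = 0.122). HOOK1, a linker of cargo to dynein, had 761 to 1018 CPM in control, 565, 643 and 418 CPM in EZH2ko and 222, 296 and 253 CPM in SUZ12ko clones (log2 difference 1.08, SE 0.20, adjusted p = 0.388). NFKB1, a subunit of NF-kappaB, had 33.3 to 34.6 CPM in control, 18.7, 24.6 and 19.4 CPM in EZH2ko and 10.1, 9.13 and 13.1 CPM in SUZ12ko clones. PKIG, an inhibitor of protein kinase A, had 79.7 to 90.7 CPM in control, 32.97, 52.6 and 25.6 CPM in EZH2ko and 20.4, 16.6 and 17.1 CPM in SUZ12ko clones. SMIM3, a small membrane protein, had 15.7 to 18.1 CPM in control, 10.9, 15.4 and 9.94 CPM in EZH2ko and 6.45, 6.40 and 6.29 CPM in SUZ12ko clones (log2 difference 0.92, adjusted p = 0.716). Against control, ITM2A, HOOK1, NFKB1 and PKIG fell in each KO genotype (adjusted p of 0.0438 or less in edgeR's test), and SMIM3 fell in SUZ12ko (adjusted p = 0.000714), with an adjusted p of 0.109 in EZH2ko.

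Other genes higher in EZH2ko did not follow that order. HBEGF, a ligand of the EGF receptor, had 21.9, 25.8 and 18.0 CPM in EZH2ko and 12.8, 10.7 and 11.2 CPM in SUZ12ko clones, with 11.6 to 14.6 CPM in control. ADAMTS4, an aggrecan-cleaving protease, had 27.6, 33.8 and 24.7 CPM against 11.9, 14.6 and 17.1 CPM, with 20.5 to 25.2 CPM in control. CD59, an inhibitor of complement, had 297, 326 and 306 CPM against 231, 200 and 220 CPM, with 255 to 288 CPM in control. The log2 differences were 0.92 (SE 0.19), 0.98 (SE 0.19) and 0.51 (SE 0.11), with adjusted p-values of 0.488, 0.403 and 0.608. LIPH, a lipase, had a log2 difference of 2.31. It was at 3.22 to 8.59 CPM in EZH2ko, which overlapped the 3.43 to 5.83 CPM of the controls, and at 0.86 to 1.93 CPM in SUZ12ko clones.

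Genes that rose without PRC2 were then described as a group. Taken were those at least 2-fold higher in the mean of both KO genotypes than in control, with an adjusted p under 0.05. These 2040 genes (13.5% of those tested) are called PRC2-repressed below. The choice used the mean of the genotypes and not their difference, so a gene that rose in SUZ12ko alone could enter. The name rests on RNA, and whether PRC2 binds these genes was not tested. Against control their median log2 change was 2.79 in EZH2ko and 3.18 in SUZ12ko cells. The median of the difference, EZH2ko minus SUZ12ko, was -0.33, beside 0.01 over all genes tested. The difference was negative for 1504 of the 2040 genes (73.7%), beside 48.8% of all genes. At an unadjusted p under 0.05 stood 175 lower (8.58%) and 16 higher in EZH2ko (0.784%), beside 2.16% and 2% of all genes, and 0 were called after adjustment in edgeR's test (7 with DESeq2).

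The clones overlapped in this measure. Relative to the mean of the 6 libraries, the median over PRC2-repressed genes was -0.25, -0.03 and -0.13 in EZH2ko clones 1, 2 and 3 and 0.19, 0.42 and -0.06 in SUZ12ko clones 1, 2 and 3, on the log2 CPM scale. SUZ12ko clone 3 thus lay between the EZH2ko clones. Without SUZ12ko clone 2, the median difference was -0.16 and 97 genes were lower at an unadjusted p under 0.05, and without SUZ12ko clone 3 they were -0.43 and 232. Without EZH2ko clone 1, 95 genes were lower at that p, with a median of -0.27. The libraries are of bulk cells, in which fewer cells with a derepressed gene and less RNA of it per cell cannot be told apart.

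The difference was larger in genes that controls hardly expressed. For the 1291 PRC2-repressed genes with a control mean under 1 CPM the median difference was -0.48, for the 540 with 1 to 10 CPM it was -0.20, and for the 209 with at least 10 CPM it was -0.13. The rise against control itself shrank in this order, with median log2 changes of 3.65, 1.92 and 1.39 in EZH2ko and 4.19, 2.12 and 1.52 in SUZ12ko cells. The precision rose in the same order, with a median half-width of the 95% interval of 1.39, 0.93 and 0.63, and a difference within 2-fold was shown by the interval for 32, 139 and 132 genes of these groups. PRKCB, a protein kinase C gene and target of EWS::FLI1, rose against control in each genotype and had 596, 548 and 631 CPM in EZH2ko and 749, 718 and 701 CPM in SUZ12ko clones (log2 difference -0.29, 95% interval -0.73 to 0.16). CD79A, a B cell receptor gene that A673 cells also express, rose in each genotype and was at 32.98 to 46.6 against 30.3 to 40.1 CPM (log2 difference 0.14, 95% interval -0.47 to 0.76).

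**Figure D3:**
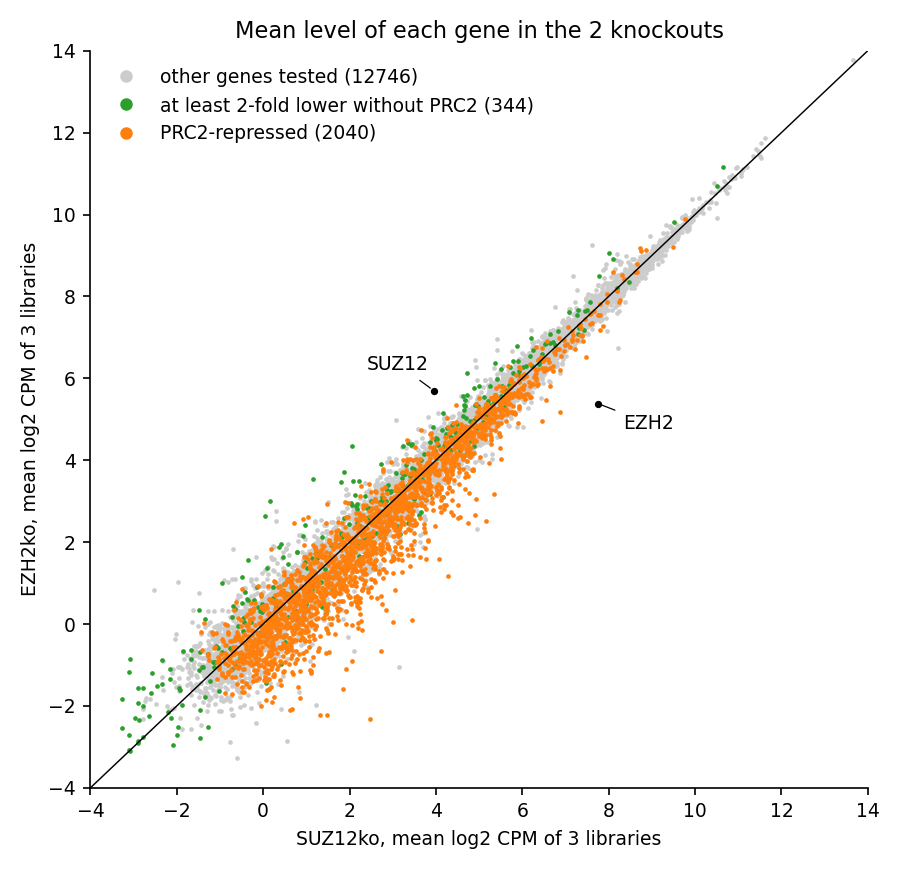
Mean log2 CPM (prior count 2) over 3 libraries in SUZ12ko (horizontal) and EZH2ko cells (vertical) for the 15130 genes tested, with the line of equality. Orange marks the 2040 PRC2-repressed genes, of which 1504 had a negative fitted difference. Green marks the 344 genes at least 2-fold lower in the mean of the KO genotypes. EZH2 and SUZ12 are labelled.

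Genes that were at least 2-fold lower in the mean of the KO genotypes than in control, with an adjusted p under 0.05, went the other way. These 344 genes (2.27%), SUZ12 among them, had a median log2 change against control of -1.44 in EZH2ko and -1.75 in SUZ12ko cells. Their median difference between the genotypes was 0.31, and 254 of them were higher and 26.2% lower in EZH2ko, beside 48.8% lower of all genes. At an unadjusted p under 0.05 stood 54 higher (15.7%) and 6 lower in EZH2ko (1.74%), beside 2% and 2.16% of all genes. The clones overlapped here too, with medians of 0.27, 0.27 and -0.08 in EZH2ko clones 1, 2 and 3 and -0.10, -0.23 and -0.07 in SUZ12ko clones. EZH2ko clone 3 was in the range of the SUZ12ko clones, and without EZH2ko clone 2 the number higher at that p was 29, while without EZH2ko clone 3 the number lower was 13.

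Developmental transcription factors are the textbook targets of PRC2. Of 81 dispersed homeobox genes, 63 were tested, 35 of them PRC2-repressed, and the median difference was -0.28. Of the 63, 7 were lower at an unadjusted p under 0.05 and 0 higher, beside 2.16% and 2% of all genes. Without overlap of the clones, 16 were lower (25.4% of 63, beside 5.16% of all genes) and 1 higher. Of 80 SOX, T-box, forkhead, GATA and bHLH genes, 44 were tested, 24 of them PRC2-repressed, and the median was -0.25. Of the 44, 7 were lower and 1 higher at that p. Without overlap, 10 were lower (22.7%) and 4 higher, beside 5.16% and 4.81% of all genes. TBX5, a regulator of heart and forelimb, had 0.43, 0.11 and 2.18 CPM in EZH2ko and 10.4, 5.19 and 5.11 CPM in SUZ12ko clones (log2 difference -2.91, SE 0.87). GATA3, a regulator of T cells and sympathetic neurons, had 2.11, 9.65 and 11.9 CPM against 26.6, 33.5 and 29.8 CPM (log2 difference -1.93, SE 0.73). The adjusted p was 0.999 for both, and no gene of either list was called in edgeR's test, while DESeq2 called MNX1 among them.

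The clusters of HOX genes, which pattern the body axis, formed a list of their own. Of 39 HOX genes 35 were tested, 11 were PRC2-repressed, and the median difference was 0.02, with 17 lower and 18 higher in EZH2ko. Without overlap of the clones, 4 were lower (11.4%, beside 5.16% of all genes) and 2 higher, and the difference between the HOX and homeobox lists was not tested. HOXC12 had 5.32, 9.26 and 18.7 CPM in EZH2ko and 30.3, 22.6 and 23.4 CPM in SUZ12ko clones (log2 difference -1.20, SE 0.38). HOXB7 was at 26.8 to 30.8 against 18.3 to 21.9 CPM (log2 difference 0.51, SE 0.21).

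Taking HOX, homeobox and the other lineage factors together, 70 were PRC2-repressed. Their median difference was -0.59, with 59 of 70 lower in EZH2ko (84.3%, beside 48.8% of all genes). At an unadjusted p under 0.05 stood 15 lower (21.4%) and 0 higher, beside 2.16% and 2% of all genes. In this group the clones did not overlap, with medians of -0.31, -0.49 and -0.06 in EZH2ko clones 1, 2 and 3 and 0.38, 0.35 and 0.32 in SUZ12ko clones. Each clone still had a median of 2.77 to 3.54 above control in EZH2ko and of 3.81 to 4.03 in SUZ12ko, on the log2 CPM scale. Leaving out a library gave a median difference between -0.87 (without EZH2ko clone 3) and -0.43 (without EZH2ko clone 2), and 6 to 14 genes lower at that p, with 6 without EZH2ko clone 1 or SUZ12ko clone 2, 7 without EZH2ko clone 2 and 10 without SUZ12ko clone 1. The group was formed after the values of its lists had been seen, and a gene could enter it through SUZ12ko alone. The separation of its clones is therefore a description and no test.

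**Figure D4:**
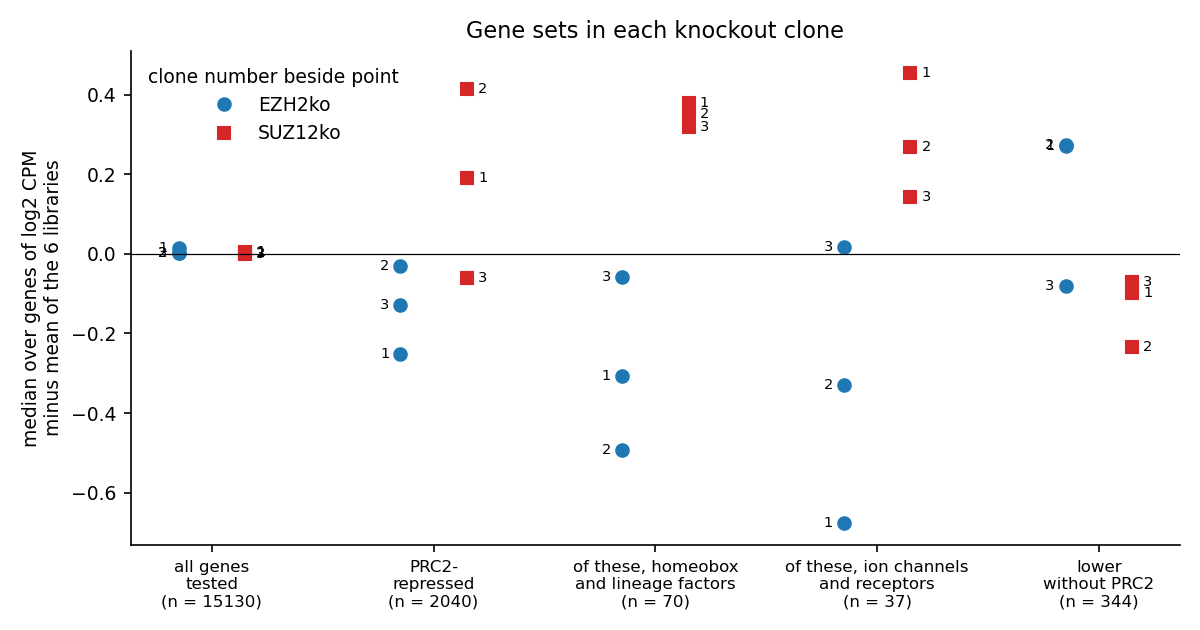
Median over genes of log2 CPM minus the mean of the 6 KO libraries (vertical axis) for each clone, with EZH2ko clones as blue circles, SUZ12ko clones as red squares and the clone number beside the point. For all genes the clones lie at 0. For PRC2-repressed genes SUZ12ko clone 3 lies among the EZH2ko clones, while for PRC2-repressed homeobox and lineage factors EZH2ko clones lie at -0.49 to -0.06 and SUZ12ko clones at 0.32 to 0.38. The group of homeobox and lineage factors was formed after values of these data had been seen.

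Neuronal genes were described by their own lists. Of 104 ion channels and neurotransmitter receptors, 65 were tested, 37 of them PRC2-repressed. The median difference of the 65 was -0.43, with 48 lower in EZH2ko, and 9 lower and 1 higher at an unadjusted p under 0.05, beside 48.8%, 2.16% and 2% of all genes. Without EZH2ko clone 1 the median was -0.26 and 3 were lower at that p, and without EZH2ko clone 2 or SUZ12ko clone 1 or 2 there were 5. For the 37 PRC2-repressed members the medians per clone were -0.68, -0.33 and 0.02 in EZH2ko clones 1, 2 and 3 and 0.45, 0.27 and 0.14 in SUZ12ko clones, and the median difference was -0.56, or -0.30 without EZH2ko clone 1. KCNA6, a voltage-gated potassium channel, was at 0 in every control and had 0.96, 3.94 and 3.17 CPM in EZH2ko and 10.9, 8.95 and 7.85 CPM in SUZ12ko clones (log2 difference -1.78, SE 0.52). GRIK2, a kainate receptor, was higher in EZH2ko, with 125, 240 and 65.4 CPM against 29.4, 84.9 and 30.7 CPM (log2 difference 1.57, SE 0.48). The clones of GRIK2 overlapped, and the gene lies in a stretch of chromosome 6 described below.

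Axon guidance genes had a median difference of -0.03 over 59 tested. At an unadjusted p under 0.05 stood 4 lower and 2 higher, beside 2.16% and 2% of all genes. EPHA4, an ephrin receptor, had 26.2, 18.8 and 26.5 CPM in EZH2ko and 49.96, 52.1 and 29.1 CPM in SUZ12ko clones (log2 difference -0.87, SE 0.26), and EFNA2, an ephrin, a log2 difference of -1.47. Clustered protocadherins, which give neurons their surface identity, had a median of 0.21 over 43 tested, with 33 higher and 10 lower in EZH2ko, beside 48.8% lower of all genes, and 0 lower and 1 higher at that p. Without EZH2ko clone 2 there were 5 higher at that p. This median was 0.05 without EZH2ko clone 3, 0.08 without SUZ12ko clone 2, 0.35 without EZH2ko clone 2 and 0.40 without SUZ12ko clone 3. PCDHGB6 was at 0.44 to 0.66 against 0.18 to 0.24 CPM and PCDHGC4 at 0.58 to 0.83 against 0.24 to 0.58 CPM. The variable exons of this cluster are spliced to shared exons, so the counts of single members are uncertain.

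Signalling, matrix and muscle genes had medians of -0.10 to 0.08. WNT, BMP and TGF-beta genes had a median difference of -0.10 over 57 tested, with 39 lower and 18 higher in EZH2ko. At an unadjusted p under 0.05 stood 1 lower and 0 higher, beside 2.16% and 2% of all genes. Without overlap of the clones, 7 were lower (12.3%, beside 5.16% of all genes) and 1 higher. SFRP1, a WNT antagonist, had 2.78, 1.94 and 5.68 CPM in EZH2ko and 14.2, 18.6 and 3.87 CPM in SUZ12ko clones, which overlapped. INHBA, a subunit of activin, was at 4.31 to 5.21 against 2.24 to 2.96 CPM. Collagen genes had a median of 0.08 over 32, with 2 lower and 3 higher at that p. COL9A3, a collagen of cartilage, was at 24.9 to 33.3 against 38.4 to 90.5 CPM, and COL16A1 at 37.3 to 126 against 38.5 to 46.6 CPM. Striated and smooth muscle genes had a median of 0.07 over 17. At that p stood 1 lower, RYR1 (log2 difference -1.55), and 1 higher, ACTN2 (0.74).

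Genes repressed by EWS::FLI1, many of them mesenchymal, had a median difference of 0.51 over 23 tested, with 21 higher and 2 lower in EZH2ko, beside 48.8% lower of all genes. At an unadjusted p under 0.05 stood 0 lower and 3 higher, beside 2.16% and 2% of all genes, and the number higher was 0 without SUZ12ko clone 1, 1 without EZH2ko clone 2 and 6 without EZH2ko clone 3. In this list 9 of 23 genes were among those at least 2-fold lower without PRC2, beside 2.27% of all genes. The medians per clone were 0.47, 0.37 and -0.21 in EZH2ko clones 1, 2 and 3 and -0.22, -0.10 and -0.28 in SUZ12ko clones, so that EZH2ko clone 3 lay among the SUZ12ko clones. Without EZH2ko clone 3 the median difference was 0.78. TNC, a matrix glycoprotein, had 351, 307 and 428 CPM in EZH2ko and 204, 188 and 278 CPM in SUZ12ko clones (log2 difference 0.70, SE 0.25). COL3A1, a fibrillar collagen, had 119, 146 and 19.2 CPM against 23.6, 44.8 and 17.5 CPM. Genes activated by EWS::FLI1 had a median of -0.07 over 30, and the 1 called gene was EZH2, which is on this list. NR0B1, a nuclear receptor activated by the fusion, was at 159, 530 and 152 CPM in EZH2ko and 132, 135 and 189 CPM in SUZ12ko clones, and EZH2ko clone 2 alone was high.

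Chromatin genes outside PRC2 differed little. PRC1, the second Polycomb complex, had a median of -0.03 over 29 genes, with 28 intervals within 2-fold. PHC1, a polyhomeotic subunit, had 71.2, 76.5 and 71.9 CPM in EZH2ko and 93.1, 95.7 and 96.0 CPM in SUZ12ko clones without overlap (log2 difference -0.38, SE 0.13), and PHC3 a log2 difference of 0.38. A list drawn up for enzymes of H3K27 and H3K36 marks had a median of -0.03, with 16 of 16 intervals within 2-fold. It also held KMT2C (-0.36) and KMT2A (0.13), which methylate another lysine of H3. For DNA methylation enzymes the median was -0.01 over 7, with DNMT3A at 88.2 to 101 against 109 to 112 CPM and DNMT3B at -0.36. The BAF complex had a median of 0.00 over 22, with SMARCA2, one of its ATPases, at 0.56 and ARID1B at 0.35.

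Several lists for other known Polycomb effects were without a called gene. Of 8 cyclin-dependent kinase inhibitors 6 were tested, with CDKN2D at 0.38 and CDKN2C at 0.29. Imprinted genes had a median of -0.01 over 18, with DLK1 at -1.68 and SGCE at 0.44. DLK1 had 1.20, 2.33 and 10.3 CPM in EZH2ko and 4.14, 29.1 and 11.1 CPM in SUZ12ko clones, which overlapped. Of 35 germline genes 5 were tested. PRAME, a cancer-testis antigen, had 29.3, 30.5 and 52.6 CPM in EZH2ko and 145, 174 and 64.0 CPM in SUZ12ko clones against 0.91 to 2.74 CPM in control (log2 difference -1.77, SE 0.71), and SYCP1, a protein of meiotic chromosomes, had 1.96, 3.10 and 1.51 CPM against 2.26, 7.97 and 1.83 CPM. The clones of SYCP1 overlapped, and its difference of -0.88 was 0.10 without SUZ12ko clone 2, the high library.

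Immune genes were described from 2 lists. MHC class I presentation genes had a median of 0.08 over 14, and 0 at an unadjusted p under 0.05, beside 4.16% of all genes. B2M, the light chain of MHC class I, had 1371, 1242 and 1391 CPM in EZH2ko and 1051, 806 and 1080 CPM in SUZ12ko clones without overlap (log2 difference 0.45, 95% interval -0.01 to 0.90). In this list 1 gene was higher and 1 lower without overlap, beside 4.81% and 5.16% of all genes. Interferon-stimulated genes had a median of -0.03 over 37, with SP100 at 0.87 and SAMD9 at 1.04, and 0 at that p.

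Metabolic and cell cycle genes had lists of their own. All 24 cholesterol synthesis genes had a lower fitted level in EZH2ko, with a median of -0.32. At an unadjusted p under 0.05 stood 2 of them, SQLE (-0.56) and CYP51A1 (-0.44), beside 2.16% of all genes lower. The clones overlapped, with list medians of -0.03, 0.08 and -0.47 in EZH2ko clones 1, 2 and 3 and 0.37, 0.57 and -0.46 in SUZ12ko clones, and the median difference was -0.09 without SUZ12ko clone 2 and -0.59 without SUZ12ko clone 3. At that p stood 14 genes without SUZ12ko clone 3 and 0 without EZH2ko clone 2 or 3 or SUZ12ko clone 1 or 2, and 19 genes were lower without EZH2ko clone 3 or SUZ12ko clone 2. Amino acid stress genes had a median of 0.17 over 31, which was -0.15 without EZH2ko clone 2, 0.36 without EZH2ko clone 3 and 0.11 without SUZ12ko clone 3. NUPR1, a stress regulator, had 1.58, 10.1 and 0.43 CPM in EZH2ko and 0.43, 0.49 and 0.38 CPM in SUZ12ko clones, and WARS1, a transfer RNA synthetase, 191, 281 and 165 CPM against 140, 126 and 145 CPM. Glycolysis and hypoxia genes had a median of 0.05 over 38, with PFKM at -0.28 and ERO1A at 0.23. DNA replication and mitosis genes had a median of -0.04 over 58, with 55 intervals within 2-fold, UBE2C at -0.43 and TOP2A at -0.29.

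Since each library is a clone, levels were also compared along the chromosomes. For genes with at least 10 CPM in control, the log2 CPM of each library was set against the control mean. On chromosome 7, from EZH2 to the end of the long arm (148807257 to 159233377) and without EZH2 itself, the median over 36 genes was -0.87 in EZH2ko clone 3, where 35 of the 36 were below control. It was -0.16 and 0.04 in EZH2ko clones 1 and 2 and 0.01 to 0.12 in SUZ12ko clones. Over the 20 Mb before EZH2 the median of clone 3 was -0.10 over 50 genes. LMBR1 and MNX1 lie in the distal stretch, as does KMT2C, which had 31.5 CPM in clone 3 where the other KO clones had 53.7 to 68.9 CPM. MNX1 was low in all 3 EZH2ko clones, and its log2 difference was -2.30 without clone 3, while that of LMBR1 was -0.49. Of 66 genes tested in this stretch, 18 were lower in EZH2ko at an unadjusted p under 0.05 (27.3%, beside 2.16% of all genes), and 9 without clone 3 or without SUZ12ko clone 2, with 11 without SUZ12ko clone 1. The median difference of the 66 was -0.37, and it was -0.16 without EZH2ko clone 3 and -0.64 without EZH2ko clone 2. Copy number of DNA was not measured here, and its part in these levels was not tested.

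**Figure D5:**
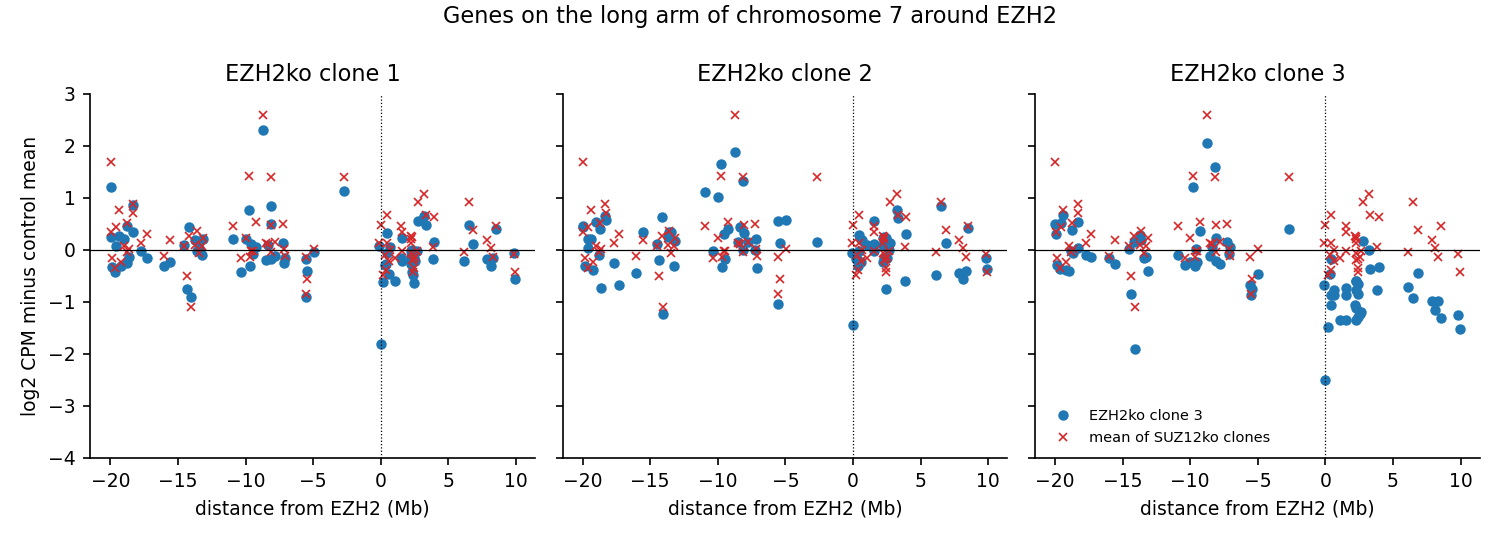
Difference in log2 CPM from the control mean (vertical axis) of genes with at least 10 CPM in control, against the distance of their start from that of EZH2 (horizontal axis, Mb), on the long arm of chromosome 7. Each panel shows 1 EZH2ko clone as blue circles, with the mean of the SUZ12ko clones as red crosses. Beyond EZH2, the genes of EZH2ko clone 3 lie below 0, with a median of -0.87 over 36 genes, and those of the other EZH2ko clones lie around 0.

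The neighbours of the edited genes were listed separately. Of 11 listed neighbours of EZH2 on chromosome 7, 9 were tested, 8 with a lower fitted level in EZH2ko (median -0.31). At an unadjusted p under 0.05 stood 2, ZNF783 (-0.48) and CNTNAP2 (-0.76), beside 2.16% of all genes lower. Neighbours of SUZ12 on chromosome 17 had a median of 0.03 over 14, with RAB11FIP4 at -0.93 and RHBDL3 at -0.62. From SUZ12 to the end of chromosome 17, the medians of all 6 KO clones over 356 genes were between -0.01 and 0.05.

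Other stretches stood apart in single clones or in clones of both genotypes. On chromosome 6 from 70 to 140 Mb, the median over 149 genes was 0.44 and 0.39 in EZH2ko clones 1 and 2 and 0.36 in SUZ12ko clone 2, and -0.23 to -0.15 in the other 3 KO clones. The controls ranged there from -0.23 in the parental line to 0.19. From 140 Mb to the end of chromosome 6, EZH2ko clones 1 and 2 were at 0.35 and 0.29 and the other KO clones at -0.29 to -0.07. Of 102 genes tested in that last stretch, 14 stood at an unadjusted p under 0.05 (13.7%, beside 4.16% of all genes), 0 of them lower in EZH2ko. Their stretch had a median difference, EZH2ko minus SUZ12ko, of 0.33 over the genes tested. EZH2ko clone 2 was apart on the first 30 Mb of chromosome 6 (0.51 over 81 genes), on chromosome 8 from 80 to 130 Mb (-0.56 over 95 genes) and on chromosome X from 10 to 30 Mb (0.74 over 39 genes). RBBP7 lies in this stretch of chromosome X, and JARID2 in that of chromosome 6, where clone 2 had the highest levels of both genes. SUZ12ko clone 2 was apart on chromosome 11 from 10 to 20 Mb (-0.96 over 30 genes).

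Markers were examined for the identity of the cells. Of 8 Ewing sarcoma markers, 7 were tested, with a median difference of -0.01, and their summed level was 2954 to 3369 CPM in EZH2ko, 2891 to 3384 CPM in SUZ12ko and 2800 to 3075 CPM in control libraries. CD99, the surface antigen that defines these tumours, was counted 0 times in all KO and control libraries, and nothing can be said of it from this table. Of 10 haematopoietic markers CD3E and HBB were at 0 in all KO libraries, 3 were tested with a median of -0.11, and the sum was 34.9 to 47.8 CPM in EZH2ko and 31.7 to 42.5 CPM in SUZ12ko, most of it CD79A, beside 9.60 to 13.4 CPM in control. Epithelial markers summed to 689 to 961 against 422 to 1231 CPM, beside 342 to 394 CPM in control, with KRT18 at 397 to 505 against 249 to 466 CPM, and EPCAM stayed at or below 2.24 CPM. Endothelial markers summed to 4.55 to 7.29 against 6.72 to 11.3 CPM, beside 1.63 to 2.90 CPM in control, with CLDN5 and CDH5 at differences of -0.83 and -0.54. The summed levels of all 4 marker lists overlapped between the KO genotypes, while every KO library was above every control in the haematopoietic, epithelial and endothelial sums. The part of these markers in the other differences from control was not tested. In the comparison of the KO genotypes 0 of their tested genes were called in edgeR's test. At an unadjusted p under 0.05 stood 1, EPCAM, beside 4.16% of all genes.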

How the data were processed

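RNA-seq libraries of A673 clones were used as deposited. Per the labels, total RNA was primed with oligo(dT), and the submitters' processing notes name TopHat2 2.0.0, Bowtie 0.12.7, SAMtools 0.1.16 and hg38. The deposited values are whole-number counts of reads per gene symbol, made by the authors without normalization; the counting program is not given in the sources used here. 0 columns were left out.

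Counts of the 12 libraries of the experiment (16848611 to 20663679 per library; 28278 genes) were fitted with the quasi-likelihood method of edgeR 4.0.16 under R 4.3.3, after TMM scaling and filterByExpr (minimum count 10), with a mean per genotype and the contrast EZH2ko minus SUZ12ko. A gene was called where its p, adjusted by Benjamini-Hochberg over the 15130 genes tested, was under 0.05. CPM were scaled by TMM, and log2 CPM used a prior count of 2. With 3 clones per genotype, p-values rest on a spread per gene estimated over all 12 libraries. It mixes differences between KO clones with those among the controls, which include 2 libraries of the WT clone. It therefore does not measure the spread between KO clones alone. Floors of 3 counts per library cover counting error only. No pair of libraries of a genotype agreed within sampling noise.

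The members, the 32 gene lists and the tests were chosen with earlier results of these data known. Named genes were all tested PRC2 core and accessory genes, 12 per direction with at least 5 CPM and no overlap (called genes first, then by p), and from each list the called genes, up to 4, or the 2 with the smallest p. Some items that this rule names are not reported here. Positions are those of GENCODE 44, and promoters those of RefSeq (GRCh38.p14); no guide or protein sequence was used. Alternatives were DESeq2 1.42.0 (test, and size factors alone), library size alone, no filter, only the 6 KO libraries, these with the clone number as a block, leaving out each KO library, and, chosen after seeing the data, limma 3.58.1 voom, the sets lower without PRC2 and the stretches of chromosomes. The fit was tested on simulated data with known changes.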

Additional observations from a re-analysis of the deposited data

Results flagged for a closer look

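The genes described one by one, 12 per direction, were set against the control mean. For 4 of them, every clone of one KO genotype was above that mean and every clone of the other below it. These were EZH2 (log2 difference EZH2ko minus SUZ12ko -2.32), ADAMTS4 (0.98), HBEGF (0.92) and CD59 (0.51). Genes named only from the lists were not counted, and some of them, such as HOXB7, met the same rule. The share over all genes tested was not counted either. The difference between the genotypes passed the test of edgeR for EZH2 (adjusted p = 0.00186) and missed it for ADAMTS4 (adjusted p = 0.403), HBEGF (adjusted p = 0.488) and CD59 (adjusted p = 0.608), while DESeq2 called all 4. Over all alternatives the log2 difference was 0.85 to 1.10 for ADAMTS4, 0.79 to 1.05 for HBEGF and 0.45 to 0.56 for CD59. EZH2 is the gene edited in one of the genotypes.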

How the results depend on the processing

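The number of genes called depended on the method: 1 with edgeR as reported, 22 with DESeq2 (7 of them PRC2-repressed, 4 in a gene list), 5 without a filter on low counts (1 and 2), 2 with library size alone (0 and 2) and 2 with limma voom (1 and 1). With only the 6 KO libraries, edgeR called 0 genes, in lists 0, with 790 at an unadjusted p under 0.05, and the log2 difference of EZH2 was -2.32 with an adjusted p of 0.209. With the clone number as a block the counts were 0 and 0, with 1176 at that p, and EZH2 had -2.37 (adjusted p = 0.266). The numbers name clones only. Deviations of clones with the same number correlated at -0.14, 0.38 and 0.32, and EZH2ko clone 1 correlated best with SUZ12ko clone 3. SUZ12 passed with DESeq2 (1.70), library size alone (1.72) and no filter (1.74). The causes were not tested.

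Leaving out each KO library gave 1 or 2 called genes, 1 or 2 in lists and 0 PRC2-repressed, the second being SUZ12 without SUZ12ko clone 3. The log2 difference was -2.55 to -2.09 for EZH2 and 1.53 to 1.96 for SUZ12, the median of PRC2-repressed genes -0.43 to -0.16 and that of genes lower without PRC2 0.25 to 0.40. The sign turned for genes near 0, with ranges of -0.16 to 0.14 for EED, -0.21 to 0.13 for RBBP4, -0.027 to 0.17 for MTF2, -0.19 to 0.26 for JARID2, -0.13 to 0.25 for EZH1 and -0.0046 to 0.25 for CD79A, and also for SYCP1 (-0.88 as reported, -1.23 to 0.10), which was high in SUZ12ko clone 2 alone. Of the other values of single genes under the alternatives other than limma voom, 1046 kept their direction and their side of the threshold and 18 passed it only under the alternative. At this depth and number of clones, a 95% interval within 2-fold was reached by 14.9% of PRC2-repressed genes.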
